A study of Mus musculus with 8 samples.

Results

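The 9 genes described here are Saa1, Saa2, Saa3, Ccl2, Ccl5, Ccl7, Cxcl1, Csf2 and Il11, a set of acute-phase, chemokine and cytokine genes, taken by name from the 31053 genes of the count matrices. They were chosen from earlier results of these libraries, namely their levels by cell class and age and the spread of their unique molecular identifiers (UMIs) over cells, so the values below are a description and carry no test. The cells came from intervertebral discs of mice at 8 weeks (8W) and at postnatal day 10 (P10), taken at lumbar 1 to 6 and tail 5 to 9, and were sequenced by droplet single-cell RNA-seq. Mice of both ages carried Tagln-CreERt2 and R26tdTomato, that is, a tamoxifen-inducible Cre driven by Tagln, a gene of contractile cells, and a red reporter in the Rosa26 locus, and tamoxifen had been given at postnatal day 5. The study addresses whether Tagln-expressing progenitors feed the nucleus pulposus (NP), the soft core of the disc. The 4 samples deposited for an age share 1 matrix that does not say which cell is whose. Each age is therefore treated as 1 library, with no replicate error to set a difference against, and an effect of age cannot be told apart from one of the library.

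Serum amyloid A proteins (Saa genes) are acute-phase proteins, made chiefly by the liver in systemic inflammation and by some connective tissue cells locally. Chemokines are small secreted proteins that draw leukocytes towards their source, with CC chemokines such as Ccl2 and Ccl7 acting mainly on monocytes and CXC chemokines such as Cxcl1 mainly on neutrophils, while the cytokines Csf2 and Il11 act on myeloid cells and on cells that carry the gp130 receptor chain. Inflammatory signals switch such genes on through the transcription factors NF-kappa B, AP-1 and C/EBP, and disc cells are known to make several of these products when stressed or injured.

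After filtering, 6350 cells with a median of 14689 UMIs were kept at 8W and 6999 cells with a median of 18300 at P10, and 10 cell barcodes that passed the filters occurred in both libraries. A level is the sum of a gene's UMIs over the cells of a class, scaled to 1000000 gene UMIs of those cells (CPM), with exact 95% Poisson intervals, shares of cells have exact 95% binomial intervals, and all intervals cover counting error only. Classes were named from marker genes as "-like". NP-like cells numbered 2302 at 8W and 304 at P10, and held the keratin gene Krt19 at 1512 CPM at 8W and 2459 CPM at P10, against 16.6 and 6.01 CPM in the other cells of the same age. Chondrocyte-like cells numbered 1302 and 4787, in clusters 0, 1 and 2 for nearly all 8W cells and in clusters 15, 16, 17, 19, 20 and 25 for P10 cells, hypertrophic chondrocyte-like cells 140 and 274, and endothelial-like cells 132 and 120. Clusters 3, 6, 7 and 10, all at 8W, did not pass the naming rule and stay unnamed, and their cells enter no class, like the 57 cells of cluster 22. Cluster 7, with 1076 cells and Cilp, Tnr, Dmkn, Htra4, Vcan and Grem1 in the lead, recurs below. It held the cartilage collagen gene Col2a1 at 23212 CPM, against 17435 CPM in the other 8W cells, and had 0 cells at P10. The cartilage marker Acan went the other way, with 2534 CPM against 5858 CPM. The tendon fibroblast markers Col1a1 (17369 against 12024 CPM) and Tnmd (245 against 145 CPM) were higher in cluster 7.

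All 9 genes lie on mouse chromosomes 5, 7 and 11 (build GRCm38, GENCODE annotation) and all are protein coding. Saa3 (ENSMUSG00000040026, chr7:46711998-46715700, minus strand), Saa1 (ENSMUSG00000074115, chr7:46740497-46742980, minus strand) and Saa2 (ENSMUSG00000057465, chr7:46751790-46754313, plus strand) are neighbours, and Saa1 and Saa2 are transcribed away from each other from starts 8810 bases apart. Their longest coding transcripts are 87.33% identical over the alignment, so reads of one may have been dropped or counted for the other, and the split between Saa1 and Saa2 is uncertain. Ccl2 (ENSMUSG00000035385, chr11:82035571-82037453) and Ccl7 (ENSMUSG00000035373, chr11:82045712-82047525) are adjacent on the plus strand with starts 10141 bases apart, and their transcripts share 59.41% of the alignment. Ccl5 (ENSMUSG00000035042, chr11:83525778-83530518) and Csf2 (ENSMUSG00000018916, chr11:54247271-54249667) lie on the minus strand of the same chromosome, Cxcl1 (ENSMUSG00000029380, chr5:90891241-90893115) on the plus strand, and Il11 (ENSMUSG00000004371, chr7:4772373-4782859) on the minus strand.

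RefSeq promoter sequences (build GRCm38.p6) were matched for 6 of the 9 genes, and those of the Saa genes, Cxcl1 and Il11 are shown because Saa1 and Saa2 were found in the same cells while Cxcl1 and Il11, both highest in cluster 7 among groups of at least 50 cells at 8W, stood at different levels in NP-like and chondrocyte-like cells. Each is the 250 bases upstream of the start, 5′ to 3′ on the gene's strand, with motif matches in capitals. The Saa1 window is chr7:46742981-46743230 (minus strand), that of Saa2 chr7:46751583-46751832 (plus), that of Saa3 chr7:46715677-46715926 (minus), that of Cxcl1 chr5:90890995-90891244 (plus), and that of Il11 chr7:4778142-4778391 (minus), upstream of the inner of its RefSeq starts.
Saa1: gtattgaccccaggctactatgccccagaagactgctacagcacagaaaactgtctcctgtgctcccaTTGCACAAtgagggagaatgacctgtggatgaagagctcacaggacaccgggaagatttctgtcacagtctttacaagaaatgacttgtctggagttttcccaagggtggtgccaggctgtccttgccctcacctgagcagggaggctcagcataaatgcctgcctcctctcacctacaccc
Saa2: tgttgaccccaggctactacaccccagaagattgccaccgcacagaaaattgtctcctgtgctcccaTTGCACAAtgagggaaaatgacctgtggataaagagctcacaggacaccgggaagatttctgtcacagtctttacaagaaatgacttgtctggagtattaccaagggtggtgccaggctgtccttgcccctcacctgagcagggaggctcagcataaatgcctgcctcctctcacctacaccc
Saa3: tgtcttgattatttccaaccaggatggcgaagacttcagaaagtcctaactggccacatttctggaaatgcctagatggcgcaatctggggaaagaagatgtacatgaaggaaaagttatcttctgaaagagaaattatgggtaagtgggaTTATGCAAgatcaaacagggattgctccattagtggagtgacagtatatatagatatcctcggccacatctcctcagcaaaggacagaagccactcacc
Cxcl1: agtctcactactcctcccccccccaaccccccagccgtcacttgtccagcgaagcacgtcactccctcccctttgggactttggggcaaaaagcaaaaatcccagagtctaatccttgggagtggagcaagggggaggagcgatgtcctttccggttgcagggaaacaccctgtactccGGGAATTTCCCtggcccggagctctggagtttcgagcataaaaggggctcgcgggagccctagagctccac
Il11: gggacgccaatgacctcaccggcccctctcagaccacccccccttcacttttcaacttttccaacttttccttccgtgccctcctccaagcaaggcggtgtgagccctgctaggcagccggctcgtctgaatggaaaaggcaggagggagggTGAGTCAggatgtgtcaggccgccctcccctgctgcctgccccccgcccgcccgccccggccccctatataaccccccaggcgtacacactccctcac
The capitals mark a C/EBP match (letters TTGCNNAA on either strand) in the 3 Saa windows, 2 overlapping kappa B matches on opposite strands in Cxcl1 between 71 and 61 bases before the start, and an AP-1 match (TGANTCA) in Il11 from 98 to 92 bases before the start. The Saa1 and Saa2 windows are 94.82% identical and share the match TTGCACAA, whereas Saa3 is 52.20% identical to Saa1 and has TTATGCAA. Of 32851 mouse promoter windows of the same length, 9.56% hold the C/EBP letters, 7.25% the kappa B letters and 6.75% the AP-1 letters. The Csf2 window also holds a C/EBP match, TTGCCCAA. The STAT letters (TTCNNNGAA, in 7.02% of windows) and TATAAA (12.4%), which like the other motifs were searched on both strands, were found in none of the 6 genes' windows. These are letter matches in a short window and say nothing of whether a factor bound there.

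Saa1 encodes serum amyloid A1, an inducible acute-phase apolipoprotein, and Saa2 its near copy. Saa1 had 5752 UMIs in 241 cells at 8W and 1051 UMIs in 91 cells at P10. Saa2 had 1571 UMIs in 53 cells at 8W and 492 UMIs in 42 cells at P10. Both genes were therefore found in a small minority of the cells of either library. At 8W cluster 7 held 80.0% of the Saa1 UMIs and 78.7% of the Saa2 UMIs in 16.9% of the cells, with 279 CPM of Saa1 (interval 271 to 287) and 74.8 CPM of Saa2 (70.7 to 79.1). Cluster 10, an unnamed 8W cluster led by Ibsp, Cxcl13 and Trp63, followed with 216 CPM of Saa1 (200.3 to 233) and 68.7 CPM of Saa2 (59.98 to 78.3). The Saa2 intervals of these clusters overlap and the Saa1 intervals do not. Cluster 3 followed at 21.0 CPM of Saa1, but 97 of its 99 Saa1 UMIs lay in 1 cell. Chondrocyte-like cells had 11.4 CPM of Saa1 at 8W (274 UMIs) and 9.56 CPM at P10 (968 UMIs), the highest class at P10. NP-like cells were near 0: Saa1 had 35 UMIs there at 8W, 0.797 CPM, and 0 UMIs in 304 cells at P10, and a floor of 3 counts allows a share of cells with a UMI of up to 0.987%. With the 8W count taken as exact, Saa1 in NP-like cells at 8W was 1.78-fold above a floor of 3 UMIs over the P10 class. The lower end of its counting interval was 0.455 on the log2 scale, and it had too few UMIs to enter the comparison of ages.

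Within cluster 7, an Saa1 UMI was found in 118 of 1076 cells (10.97%) at full depth and in 7.71% (interval 6.18 to 9.48) after thinning each cell to about 2000 UMIs. The highest cell held 355 Saa1 UMIs, 0.772% of all its UMIs, and 16 cells held at least 50% of the cluster's Saa1 UMIs. For Saa2 5 cells did so. The same cells carried both genes more often than their separate shares would give: of the 1064 thinned cells 82 had Saa1, 18 had Saa2 and 11 had both, 7.93 times the product of the shares. The 2 transcripts are 87.33% identical, and the part of reads counted for the wrong gene in this overlap was not tested. The 91 cells with at least 3 Saa1 UMIs had 474 CPM of Saa2, against 20.1 CPM in the 958 cells with 0 Saa1 UMIs. They also had 449.97 CPM of Col10a1, the collagen of hypertrophic cartilage, against 77.8 CPM, a log2 ratio of 2.53 (2.40 to 2.66), while Madcam1, Serpinb8 and Sult1e1 completed the 5 leading genes on at most 7 UMIs each. Cells with at least 3 Saa2 UMIs (21 cells) had 1063 CPM of Col10a1, against 98.1 CPM in those with 0. The summed level of 13 early response genes, which enzymatic dissociation is known to induce, was 18710 CPM in the Saa1-rich cells and 19166 CPM in those with 0 Saa1 UMIs. Saa1-rich cells were deeper, with a median of 18525 UMIs against 12385.

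The proportion of Saa1 to Saa2 UMIs differed between groups of cells, but rested on few cells with Saa2. The UMI ratio of Saa1 to Saa2 was 3.72 (3.50 to 3.97) in cluster 7 and 3.14 (2.70 to 3.67) in cluster 10 at 8W. In chondrocyte-like cells it was 24.9 (13.7 to 50.5) at 8W, where Saa2 had 11 UMIs, and 2.04 (1.82 to 2.28) at P10, where 3 cells held at least 50% of the 475 Saa2 UMIs. Among P10 clusters of that class with at least 50 UMIs of the pair, cluster 20 had 0.932 (0.698 to 1.24). Cluster 15 had 9.39 (6.55 to 13.9). At 8W a Saa2 UMI was found in 2.79% of cluster 7 cells and 2.13% of cluster 10 cells. The intervals cover counting error and not the spread between these few cells. Saa3, a serum amyloid A made outside the liver, chiefly by macrophages and adipocytes, was nearly absent, with 6 UMIs in 6 cells at 8W and 37 UMIs in 7 cells at P10. Of the 37, 31 lay in 1 osteoblast-like cell. Saa4, the constitutive relative, had 0.121 CPM (2 UMIs) in cluster 7.

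**Figure D1:**
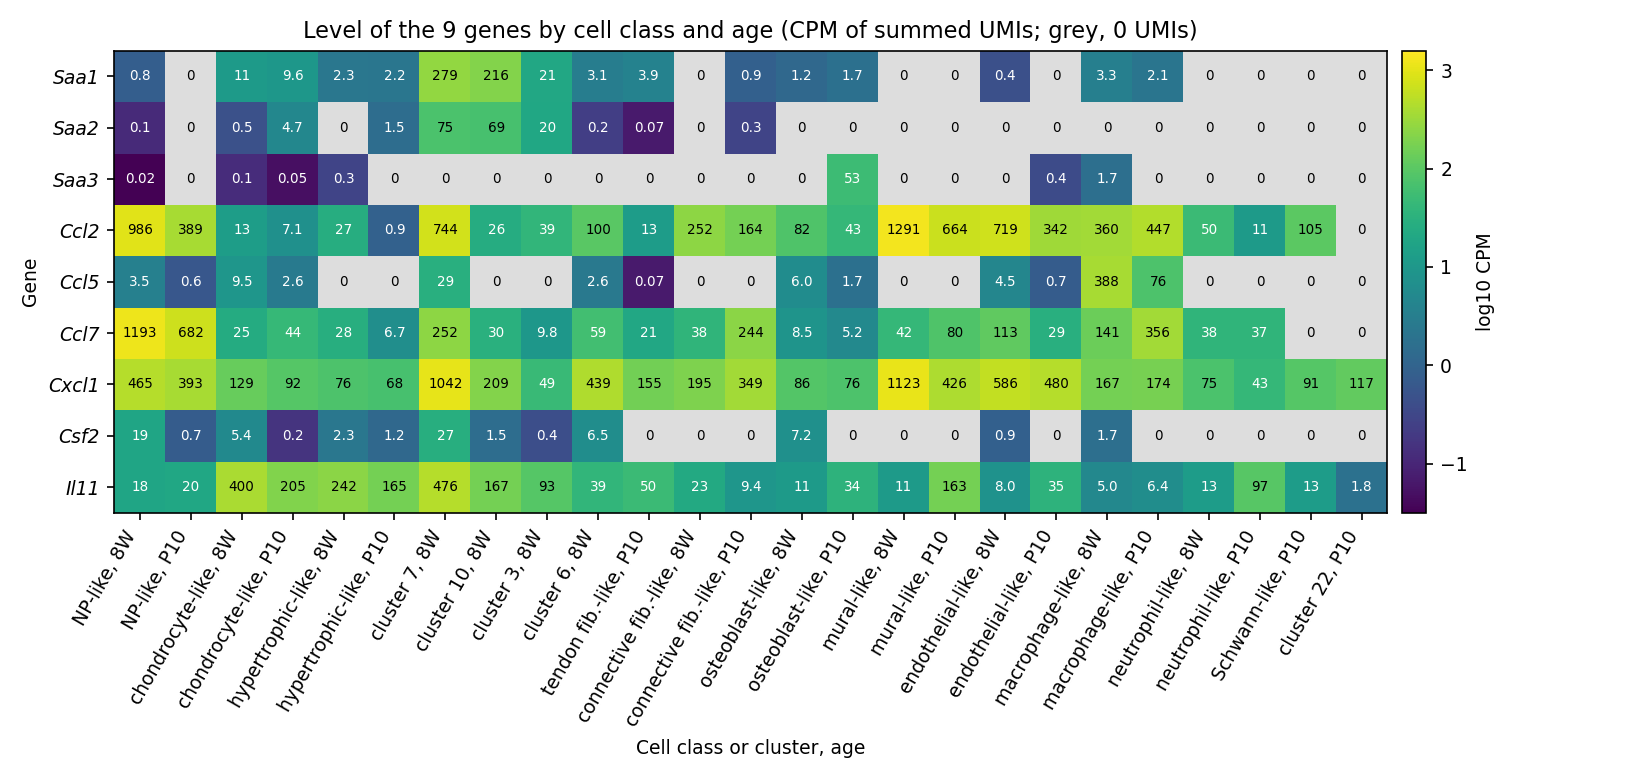
Level of the 9 genes (rows, CPM of summed UMIs, colour on a log10 scale, value printed in each cell) in classes and unnamed clusters with at least 20 cells, 8W left of P10 for each. Ccl2 and Ccl7 are high in NP-like cells, Il11 in chondrocyte-like cells and cluster 7, and Saa1 and Saa2 in clusters 7 and 10.

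Ccl2 and Ccl7 encode the monocyte chemoattractants MCP-1 and MCP-3, both ligands of Ccr2. They were the most abundant members in NP-like cells at 8W. Ccl2 had 986 CPM in NP-like cells at 8W (interval 977 to 996, 43296 UMIs) and 389 CPM at P10 (374 to 404, 2599 UMIs). Ccl7 had 1194 CPM at 8W (52390 UMIs) and 682 CPM at P10 (4562 UMIs). A Ccl2 UMI was present in 55.7% of NP-like cells at 8W and 45.7% at P10, and in 39.5% (37.5 to 41.6) and 25.8% (20.9 to 31.1) after thinning. For Ccl7 the thinned shares were 55.3% (53.2 to 57.4) at 8W and 42.4% (36.7 to 48.2) at P10. Neutrophil-like cells, taken as the comparison for free RNA, had a Ccl2 UMI in 3 of 28 cells at 8W and 3 of 109 at P10, at median depths of 1912 and 3263 UMIs, and their thinned shares (2 of 14 and 1 of 85 cells) are too few for a comparison at 8W.

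In the order of levels among classes with at least 50 cells, NP-like cells came first for Ccl2 at 8W, ahead of cluster 7 (744 CPM) and endothelial-like cells (719 CPM), whose intervals overlap, and of macrophage-like cells (360 CPM). The 32 mural-like cells at 8W had 1291 CPM (1157 to 1436), but 1 cell held 169 of its 338 UMIs. At P10 mural-like cells led with 664 CPM, followed by macrophage-like (447), NP-like (389) and endothelial-like cells (342). The macrophage-like interval overlaps that of NP-like cells. For Ccl7, NP-like cells led at both ages, ahead of cluster 7 (252 CPM) and macrophage-like cells (141 CPM) at 8W, and of macrophage-like (356 CPM) and connective fibroblast-like cells (244 CPM) at P10. The NP-like class thus held 89.9% of all Ccl7 UMIs in 36.3% of the cells at 8W, and 43.0% in 4.34% of the cells at P10.

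These adjacent genes were not present in a fixed proportion. There were 1.21 Ccl7 UMIs per Ccl2 UMI (1.19 to 1.23) in NP-like cells at 8W and 1.76 (1.67 to 1.84) at P10. Endothelial-like cells had 0.157 (0.137 to 0.179) at 8W and 0.0848 (0.0664 to 0.107) at P10, and mural-like cells 0.121 at P10. Vessel cells thus had few Ccl7 UMIs per Ccl2 UMI, although their Ccl7 level of 113 CPM in endothelial-like cells at 8W exceeded the 24.97 CPM of chondrocyte-like cells. Chondrocyte-like cells at P10 stood at the other end, with 6.27 (5.79 to 6.79). Hypertrophic chondrocyte-like cells had 7.44 (3.70 to 16.98) at P10, on 9 Ccl2 UMIs, and 1.04 (0.778 to 1.40) at 8W. At 8W chondrocyte-like cells had 1.90 (1.65 to 2.18), an interval that overlaps that of NP-like cells at P10. Cluster 7 had 0.339 (0.327 to 0.351). Within NP-like cells at 8W the ratio was 1.88 (1.84 to 1.92) in cluster 4 and 0.943 (0.927 to 0.959) in cluster 5. Cluster 4, led by Inmt, Wnt16 and Irf7, had 2003 CPM of Ccl7, against 902 CPM in cluster 5, led by Nrn1, Sostdc1 and Hopx, while Ccl2 was at 1064 and 956 CPM. UMIs of different genes are captured with different efficiency, so only the change of this ratio between classes is read.

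**Figure D2:**
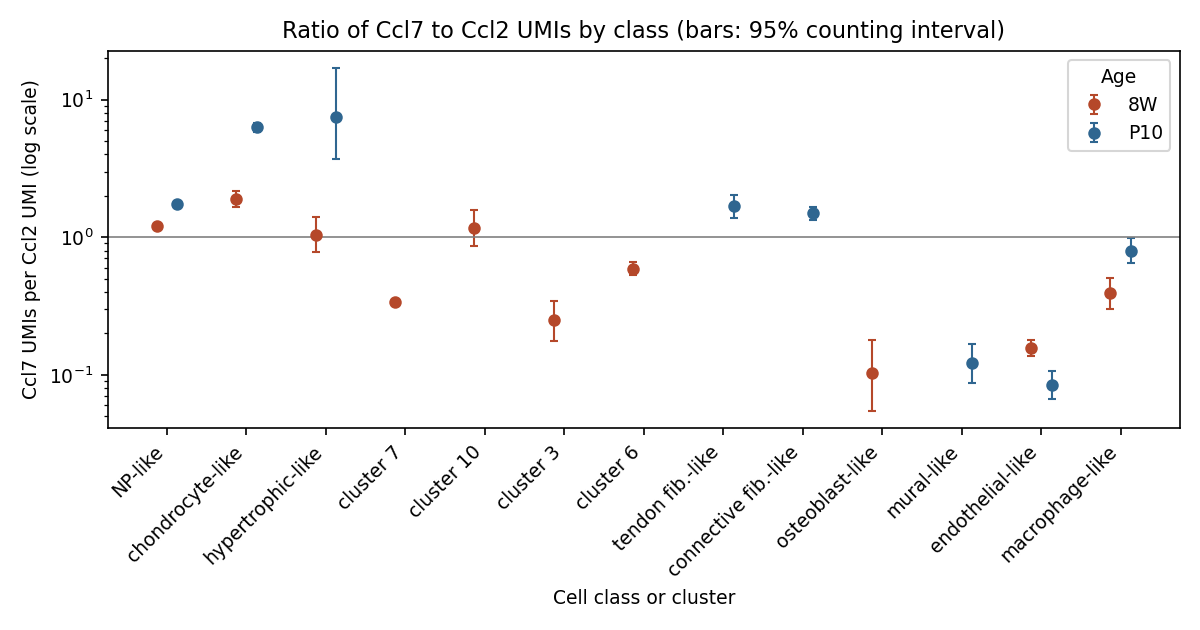
Ccl7 UMIs per Ccl2 UMI (log scale) in each class or cluster with at least 50 cells and at least 50 UMIs of the pair, 8W left of P10, with exact 95% counting intervals. Endothelial-like and mural-like cells lie under 0.2, NP-like cells between 1 and 2, and chondrocyte-like cells at P10 above 5. Schwann-like cells at P10 (0 Ccl7 UMIs against 75 of Ccl2) are not drawn.

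Ccl2 and Ccl7 were found in the same NP-like cells. After thinning, 872 of 2205 cells at 8W had Ccl2, 1220 had Ccl7 and 736 had both, 1.53 times the product of the shares, and at P10 65 of 295 cells had both, 2.02 times the product. Of the 50 cells with the most Ccl2 UMIs at 8W, 22 were among the 50 with the most Ccl7, and at P10 18. The cell that led for Ccl2, Ccl7 and Cxcl1 at 8W was 1 NP-like cell of 135550 UMIs, with 1230, 673 and 388 UMIs of the 3 genes. The 986 NP-like cells with at least 3 Ccl2 UMIs had 1890 CPM of Ccl7, against 284 CPM in the 1020 cells with 0. Besides Ccl7, the leading genes there were Ccl20 (63 UMIs against 1), a chemokine for Ccr6-bearing cells, Csf2 (29.1 against 3.92 CPM), the cornified envelope gene Sprr1a (20.7 against 3.04 CPM) and the adhesion receptor gene Sele (59 UMIs against 2). The Ccl2-rich cells were deeper (median 18263 UMIs, against 12938), and their early response genes were at 9632 CPM, against 10437 CPM.

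Macrophage transcripts in NP-like cells were few. The 9 macrophage markers summed to 28.5 CPM at 8W and 17.2 CPM at P10, against 16560 and 14055 CPM in macrophage-like cells, and the complement genes C1qb and C1qc, with Adgre1, Mrc1 and Fcer1g, had 0 UMIs in NP-like cells at P10. At 8W none of the 9 was at 0, and C1qa, C1qb and C1qc together had 0.273 CPM. Cells with at least 3 Ccl2 UMIs had 0.291 CPM of the C1q genes and those with 0 Ccl2 UMIs 0.270 CPM. Csf1r, the CSF-1 receptor gene, made up most of the summed level, with 15.9 CPM at 8W and 9.72 CPM at P10. 

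Cxcl1 encodes a neutrophil chemoattractant that acts through Cxcr2. A UMI was present in 41.2% of all cells at 8W and 24.4% at P10, and 229 and 158 cells held 50% of its UMIs. Among groups of at least 50 cells, cluster 7 led at 8W with 1042 CPM (1026 to 1058), followed by endothelial-like (586 CPM), NP-like (465 CPM) and cluster 6 cells (439 CPM), whose neighbouring intervals do not overlap. The 32 mural-like cells at 8W had 1123 CPM (998 to 1259), of which 2 cells held at least 50%. At P10 endothelial-like (480 CPM), mural-like (426 CPM) and NP-like cells (393 CPM) led and their neighbouring intervals overlap. NP-like cells had 465 CPM of Cxcl1 at 8W (459 to 472) and 393 CPM at P10 (378 to 408). Chondrocyte-like cells had 129 CPM at 8W and 91.9 CPM at P10. Its relative Cxcl2 was at 354 CPM in NP-like cells at 8W and 361 CPM at P10, and macrophage-like cells had 2094 and 2652 CPM. In thinned NP-like cells Cxcl1 was found with Ccl2 1.36 times as often as the product of the shares at 8W and 1.74 times at P10, and in cluster 7 the pair Cxcl1 and Ccl2 stood at 1.77. Cells with at least 3 Cxcl1 UMIs among NP-like cells at 8W had 106.8 CPM of Cxcl10, an interferon-induced chemokine gene, against 36.8 CPM in those with 0, and 18.0 CPM of Tac1, the precursor gene of substance P, against 5.47 CPM.

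Ccl5 (RANTES), a chemokine of T cells and NK cells among others, was rare, with 1142 UMIs in 88 cells at 8W and 308 UMIs in 38 cells at P10. Cluster 7 held 487 of the 8W UMIs (29.5 CPM), and the macrophage-like cluster 232, with the highest level of all at 388 CPM at 8W (340 to 442) and 76.3 CPM at P10 (53.5 to 106). In that cluster 7 of 77 cells at 8W and 5 of 67 at P10 had Ccl5. All 7 Ccl5-bearing cells at 8W carried T or NK cell markers (92 UMIs together) and 0 UMIs of the C1q genes, whereas the 70 cells with 0 Ccl5 UMIs had 3546 C1q UMIs in 41 cells. At P10 the 5 Ccl5-bearing cells had 19 UMIs of T or NK cell markers in 3 cells and 0 C1q UMIs. At 8W the Ccl5 UMIs of the macrophage-like cluster thus lay in cells with lymphocyte markers, and at P10 in 5 cells of which 3 had such markers. Outside it, Ccl5 reached 9.48 CPM in chondrocyte-like cells at 8W (227 UMIs, 50% of them in 4 cells) and 2.61 CPM at P10 (264 UMIs, 50% of them in 2 cells), while NP-like cells had 3.51 CPM at 8W and 0.598 CPM, 4 UMIs, at P10. In chondrocyte-like cells at 8W the T or NK cell markers summed to 3.47 CPM, of which Trac made up 3.22, against 1.49 CPM at P10.

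Csf2 encodes GM-CSF, a growth factor of myeloid cells. It was scarce at P10, with 33 UMIs in 15 of 6999 cells, and had 1487 UMIs in 207 of 6350 cells at 8W. At 8W cluster 7 had 27.4 CPM (24.9 to 30.1) and NP-like cells 18.7 CPM (17.4 to 19.98), and the classes that followed had at most 7.24 CPM. At P10 NP-like cells had 5 Csf2 UMIs in 3 cells (0.748 CPM) and hypertrophic chondrocyte-like cells 12 UMIs (1.2 CPM). In NP-like cells a Csf2 UMI was seen in 5.00% of cells at 8W and 0.987% at P10, and after thinning in 1.72% (1.22 to 2.36) at 8W and 0 of 295 cells at P10, where a floor of 3 counts allows a share of cells with a UMI of up to 1.02%. At 8W 15 cells held at least 50% of the 819 UMIs. The 65 NP-like cells with at least 3 Csf2 UMIs had 16.5 CPM of Ccl20, against 0.554 CPM in the cells with 0, and 23.7 CPM of Ccl5, against 1.76 CPM. They also had 11.7 CPM of the pericyte marker Rgs5, against 0.453 CPM, and 6.44 CPM of the endothelial gene Cldn5, against 0.201 CPM, on 29 and 16 UMIs, and a median of 24990 UMIs, against 15154. The part of these vessel transcripts and of depth in the Csf2 level was not tested. Csf3, its granulocyte counterpart, was found mostly in endothelial-like cells, with 134 CPM at 8W and 263 CPM at P10.

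Il11 encodes interleukin 11, a gp130 cytokine of connective tissue and bone. Chondrocyte-like cells held 46.8% of its UMIs at 8W, in 20.5% of the cells, and 88.1% at P10, in 68.4% of the cells. Chondrocyte-like cells had 399.6 CPM at 8W (392 to 408, 9567 UMIs) and 205 CPM at P10 (202 to 208, 20734 UMIs). Hypertrophic chondrocyte-like cells had 242 CPM at 8W and 165 CPM at P10. Cluster 7 had 476 CPM, above the chondrocyte-like class taken as a whole at 8W, and NP-like cells had 18.2 CPM at 8W and 19.6 CPM at P10. The 8W order from cluster 7 through chondrocyte-like, hypertrophic chondrocyte-like, cluster 10 (167 CPM), cluster 3 (92.9 CPM) and cluster 6 (39.3 CPM) to NP-like cells had no overlap between neighbouring intervals. At P10 the 2 cartilage classes came first, and mural-like cells next with 163 CPM, of whose 89 UMIs 88 lay in 1 cell, and the intervals of the hypertrophic chondrocyte-like and mural-like classes overlap. Neutrophil-like cells at P10 had 96.7 CPM of Il11, of whose 60 UMIs 1 cell held 40, with a UMI in 6 of 109 cells (5.50%), against 35.4% of chondrocyte-like cells at median depths of 3263 and 19431 UMIs.

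Il11 also varied among the cartilage clusters. At P10 it reached 385 CPM (376 to 394) in cluster 20, led by histone genes, and 292 CPM in cluster 25, led by Rbp4 and Gdf5, against 140 to 169 CPM in clusters 15, 16, 17 and 19. At 8W clusters 0, 1 and 2 had 404, 375 and 562 CPM, so each of them exceeded the lower P10 group. Il11 and Cxcl1 were seen together in few chondrocyte-like cells: 22 of 1292 thinned cells at 8W had both, 0.783 times the product of the shares, and 48 of 4771 at P10, 0.861 times. In cluster 7 the pair stood at 1.33. Chondrocyte-like cells at P10 with at least 3 Il11 UMIs (1040 cells) had 34.4 CPM of Dmkn, an epidermal secreted protein gene, against 4.45 CPM in the 3091 cells with 0, and 6.03 CPM of Tff1, a trefoil factor gene, against 0.425 CPM, while Lce3d, Cartpt and Rptn completed the leading genes on at most 71 UMIs each. Their early response genes were at 8648 CPM, against 8082 CPM.

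**Figure D3:**
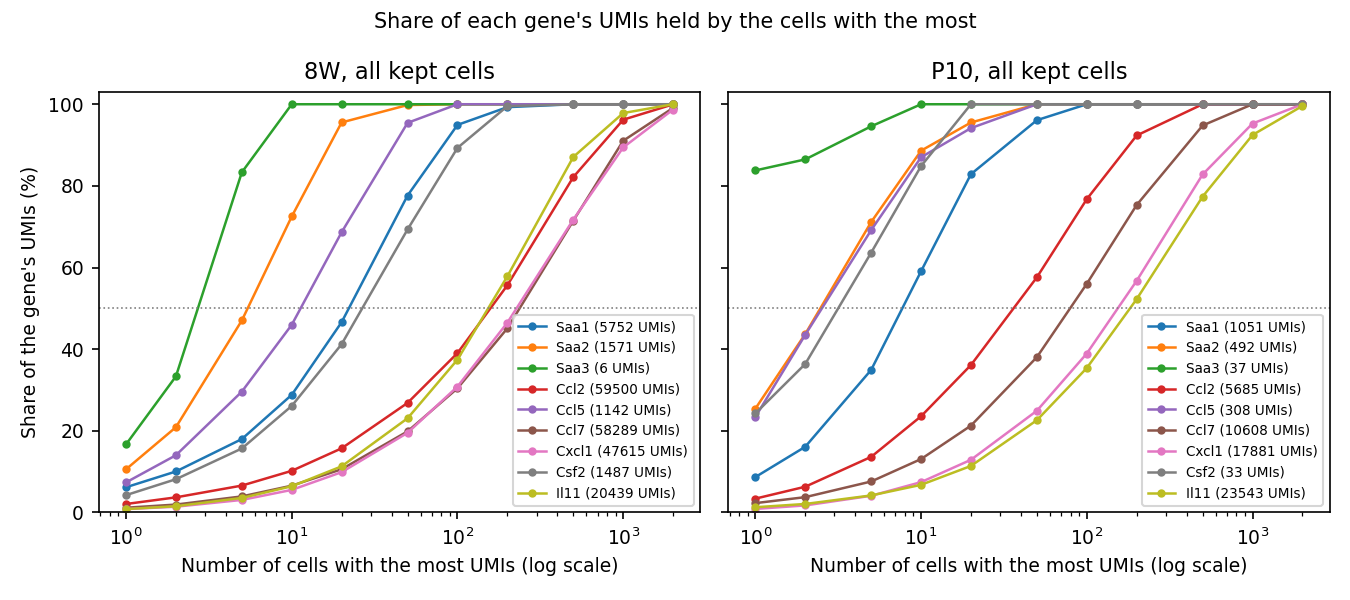
Share of each gene's UMIs (percent) held by the cells with the most UMIs of that gene, against the number of such cells (log scale), at 8W (left) and P10 (right), with the total UMIs of each gene in the legend. The dotted line at 50% is reached within 23 cells for Saa1 at 8W and 8 at P10, but takes 229 and 158 cells for Cxcl1.

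The spread over cells separated the members. The 10 highest cells held 72.5% of the Saa2 UMIs at 8W and 88.6% at P10, and 46.0% and 87.0% of those of Ccl5. For Saa1 they held 28.8% at 8W and 59.1% at P10, and for Ccl2 10.2% and 23.6%. For Cxcl1 and Il11 the share was under 8% in both libraries, with 5.52% and 7.43% for Cxcl1 and 6.41% and 6.76% for Il11. These shares depend on how many UMIs of a gene were sampled, and the total of every member but Saa3 and Il11 was lower at P10. In NP-like cells 3 or more of the 9 genes were detected in 37.2% of cells at 8W and 38.8% at P10, and in 16.1% and 14.9% of the thinned cells. In chondrocyte-like cells the thinned shares were 0.310% and 0.168%, and in cluster 7 11.8%. All 9 genes together amounted to 2686 CPM in NP-like cells at 8W and 1484 CPM at P10, to 594 and 365 CPM in chondrocyte-like cells, and to 2924 CPM in cluster 7.

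The comparison of ages takes the 4 classes that had 100 cells or more at 8W and at P10. It gives log2 ratios of CPM, 8W over P10, and a gene entered where its UMIs at both ages summed to 100 or more. With 1 library per age there is no test, and a gene past 2-fold is counted as higher or lower by size alone. In NP-like cells 6 of the 9 members entered, of which 3 were more than 2-fold higher at 8W, while 15% of the 11318 genes that entered were, and 0 were lower, against 2.79% of genes. The 3 were Csf2 with 4.64 (3.41 to 6.27), Ccl5 with 2.55 (1.17 to 4.45) and Ccl2 with 1.34 (1.29 to 1.40). Ccl7 had 0.81 (0.76 to 0.85), Cxcl1 0.24 (0.19 to 0.30) and Il11 -0.11 (-0.37 to 0.17). The median of the 6 was 1.08, beside 0.35 for all genes that entered. Relative to that median gene Ccl2 was at 0.99 and Cxcl1 at -0.11, so the direction of Cxcl1 turned. Csf2 and Ccl5 rested on 5 and 4 UMIs at P10. After thinning 3 members entered and 1 passed 2-fold, Ccl2 with 1.04, while Csf2, which no longer entered, had 0 UMIs at P10 and was at least 1.42 on the log2 scale against a floor of 3 counts over the class. Such a bound takes the 8W count as exact.

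NP-like cells of the 2 ages lay partly in different clusters: 994 of the 8W cells were in cluster 4 and 198 of the P10 cells in cluster 23, and clusters 5 and 13 held both ages. In cluster 5, with 1169 cells at 8W and 53 at P10, the log2 ratio was 0.88 (0.78 to 0.98) for Ccl2, 0.23 (0.15 to 0.31) for Ccl7 and 0.34 (0.23 to 0.46) for Cxcl1. In cluster 13, which holds the dividing cells, it was 1.19 (1.07 to 1.31) for Ccl2, 0.74 (0.63 to 0.85) for Ccl7 and 0.86 (0.71 to 1.02) for Cxcl1. The CPM of all 3 chemokines was thus higher at 8W within both shared clusters, past 2-fold for Ccl2 in cluster 13 alone. The median of all genes was not computed within these clusters. In the NP-like class it was 0.35, above the cluster 5 values of Ccl7 and Cxcl1. Csf2 had 22.6 CPM in cluster 5 at 8W and 0 UMIs in its 53 cells at P10. Early response genes summed to 10091 CPM in NP-like cells at 8W and 6850 CPM at P10, and their part in these differences was not tested. When cells with markers of another class were left out, which took 36.3% of NP-like cells at 8W and 46.7% at P10, Cxcl1 was at -0.37 and Il11 at 1.38, and Csf2, with 0 UMIs left at P10, at least at 3.08 against the same floor.

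In chondrocyte-like cells 8 members entered, and 2 were more than 2-fold higher at 8W, against 26.2% of the 12579 genes that entered, and 1 lower, against 5.69% of genes. Csf2 had 5.09 (4.34 to 5.94), with 129 UMIs at 8W and 16 at P10, and Ccl5 1.86 (1.60 to 2.12). Saa2 was the one lower at 8W, with -3.35 (-4.36 to -2.50), on 11 UMIs at 8W and 475 at P10, of which 125 lay in 1 cell at P10. Il11 had 0.96 (0.93 to 1.00) and Ccl2 0.89 (0.70 to 1.09), both just short of 2-fold. Ccl7 was lower at 8W, with -0.83 (-0.96 to -0.71). Cxcl1 had 0.49 (0.43 to 0.55) and Saa1 0.26 (0.06 to 0.45), and relative to the median gene, which was at 0.48, they were at 0.01 and -0.22. The median of the 8 was 0.69.

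These values moved with the processing. Under 7 other choices of cell filter, doublet removal or clustering all 8 members were more than 2-fold higher at 8W, with Saa2 between 2.49 and 3.99 and Ccl7 between 1.28 and 2.59, so the direction of both turned. With the 1076 cells of cluster 7 counted as chondrocyte-like, a choice made after the values were seen, all 8 were again past 2-fold and higher. Saa2 then had 2.72, Ccl7 1.41, Saa1 3.66, Ccl2 5.46 and Cxcl1 2.45, while Il11 moved little, to 1.07. The share of all genes past 2-fold was not computed under these choices, so the counts of members stand without a background. Early response genes summed to 29785 CPM in chondrocyte-like cells at 8W and 8192 CPM at P10, and in those with at least 3 Cxcl1 UMIs at 8W to 43065 CPM, against 26067 CPM in those with 0. Their part in the age ratios was not tested.

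In hypertrophic chondrocyte-like cells 4 members entered, of which 2 were higher at 8W, against 15.8% of the 7613 genes that entered, and 0 lower, against 8.41% of genes. Ccl2 had 4.92 (3.94 to 6.10), but 71 of its 95 UMIs at 8W lay in 1 cell, and Ccl7 had 2.09 (1.63 to 2.56). Without the 5 cells highest for each member, only 2 members entered and 0 passed 2-fold. Il11 had 0.55 (0.43 to 0.67) and Cxcl1 0.17 (-0.04 to 0.38), which was -0.07 when mitochondrial, ribosomal protein and hemoglobin genes were left out of the scaling. Saa2 had 0 UMIs at 8W and 15 at P10, 14 of them in 1 cell. The median of the 4 was 1.32, beside 0.17 for all genes.

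In endothelial-like cells 4 members entered, of which 2 were higher at 8W, against 6.88% of the 6205 genes that entered, and 1 lower, against 2.66% of genes. Ccl7 had 1.96 (1.59 to 2.34) and Ccl2 1.07 (0.95 to 1.19). Il11 had -2.11 (-2.92 to -1.37), on 18 UMIs at 8W and 93 at P10, at least 50% of the 93 in 2 cells, and -0.74 without the 5 highest cells. Cxcl1 had 0.29 (0.18 to 0.40). The median of the 4 was 0.68, beside 0.18 for all genes. In the smaller macrophage-like cluster Ccl7 was lower at 8W, with -1.34 (-1.74 to -0.95), as it was in connective fibroblast-like cells, with -2.68 (-3.74 to -1.79) on 10 UMIs at 8W. Ccl7 was therefore higher at 8W in NP-like, hypertrophic chondrocyte-like and endothelial-like cells and lower in chondrocyte-like, macrophage-like and connective fibroblast-like cells. Each interval was clear of 0, but covers counting error only. The chondrocyte-like direction turned under the 7 choices named. Without the 5 highest cells no member passed 2-fold in hypertrophic chondrocyte-like cells. The connective fibroblast-like value rests on 10 UMIs in 23 cells at 8W.

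**Figure D4:**
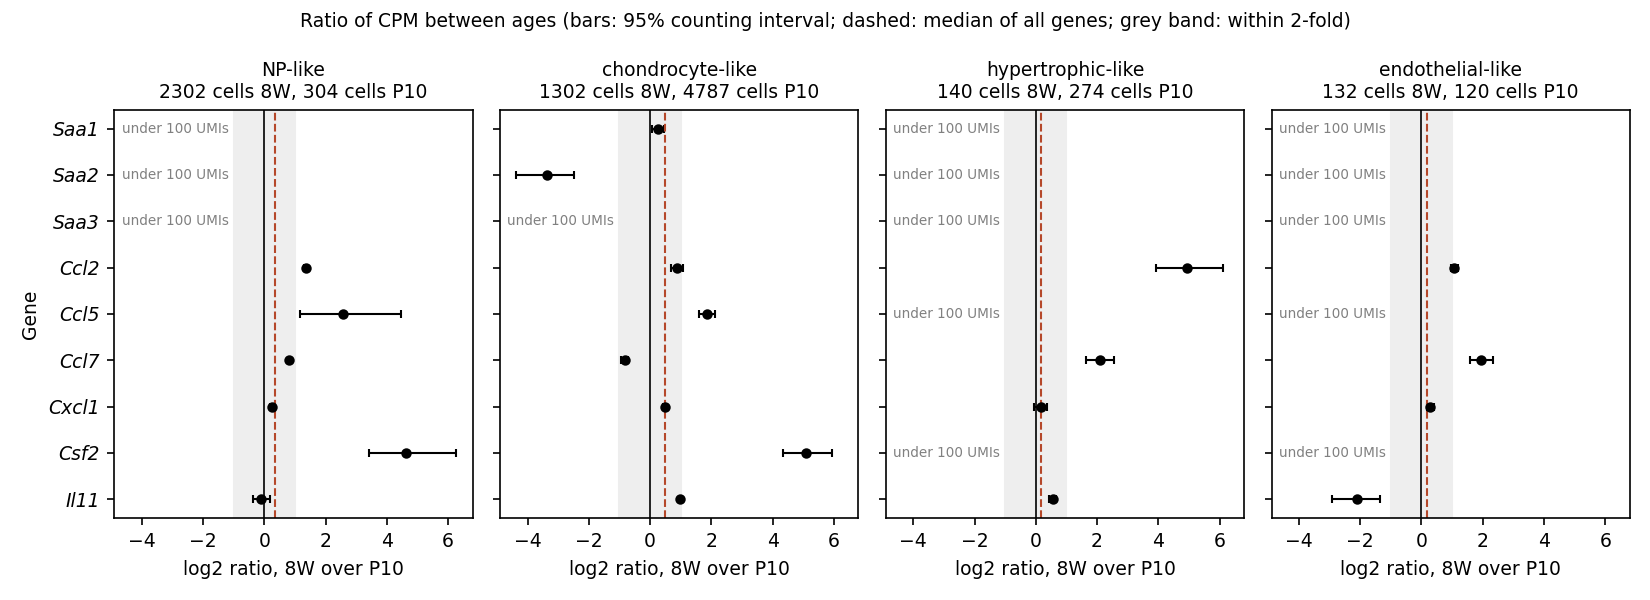
Log2 ratio of CPM, 8W over P10, for each gene in the 4 classes compared, with exact 95% counting intervals. The dashed line is the median of all genes that entered and the grey band marks less than 2-fold. Genes with under 100 UMIs in the 2 ages together have no point. Csf2 stands at 4.64 in NP-like and 5.09 in chondrocyte-like cells, and Saa2 at -3.35 in chondrocyte-like cells. The direction of Saa2 turned under other choices of cell filter, doublet removal or clustering. Its value rests on 11 UMIs at 8W, and that of Csf2 in NP-like cells on 5 UMIs at P10.

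Other genes of the same pathways were read from 6 lists in the same way. Over all genes that entered, 15% were higher and 2.79% lower in NP-like cells, and 26.2% higher and 5.69% lower in chondrocyte-like cells, where the counts below were not recomputed under the 7 choices named. Of 14 other acute-phase genes 3 entered in NP-like cells, with Cp, the copper carrier ceruloplasmin, higher at 8W and Orm1 and Serpina3n lower. Cp had 575 CPM in NP-like cells at 8W and 223 CPM at P10, and 613 CPM in cluster 7. In chondrocyte-like cells 4 entered, and Hp, which encodes the hemoglobin scavenger haptoglobin, had 162 CPM at 8W and 3.62 CPM at P10. Hp was scarce in cluster 7, at 2.54 CPM, where Saa1 was highest, so Hp and Saa1 led in different 8W cells.

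Of the other chemokines 5 entered in NP-like cells, none higher and 2 lower (Cxcl12 and Cxcl14), and 7 in chondrocyte-like cells, 4 higher (Cxcl2, Cxcl3, Cxcl10 and Cxcl16) and 1 lower (Cxcl13), beside 15% and 2.79% of all genes in NP-like cells and 26.2% and 5.69% in chondrocyte-like cells. Of the other cytokines 3 of 5 were higher in NP-like cells (Lif, Tnf and Il18), beside 15% of all genes, and 4 of 9 in chondrocyte-like cells, beside 26.2% (Il6, Lif, Tnf and Il17b), where Clcf1 and Tslp were lower. Il6, which like Il11 signals through gp130, had 78.6 CPM in chondrocyte-like cells at 8W and 2.65 CPM at P10, and 1.37 and 1.196 CPM in NP-like cells. Lif, another gp130 cytokine gene, had 102 CPM in cluster 7, 25.9 CPM in NP-like cells at 8W and 8.97 CPM at P10. Of the receptors 5 of 12 were higher in NP-like cells at 8W, beside 15% of all genes, and 7 of 11 in chondrocyte-like cells, beside 26.2%, with none lower in either.

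Feedback and target genes of NF-kappa B and STAT3 were counted in the same way. In NP-like cells 1 of 19 (Tnfaip3, the A20 inhibitor) was higher at 8W and 0 were lower, with a median of 0.16 beside 0.35 for all genes. Of all genes that entered there, 15% were higher and 2.79% lower. In chondrocyte-like cells 15 of 22 were higher and 2 lower (Vcam1 and Mmp3), with a median of 1.25 beside 0.48, while 26.2% of all genes were higher and 5.69% lower. Only members were recomputed under the choices that turned chondrocyte-like ratios. Nfkbia, which encodes the NF-kappa B inhibitor I kappa B alpha, had 1971 CPM in NP-like cells at 8W and 1150 CPM at P10, against 515 and 164 CPM in chondrocyte-like cells. Socs3, a gp130 feedback inhibitor, had 999 CPM in chondrocyte-like cells at 8W and 122 CPM at P10, but 113 and 188 CPM in NP-like cells. Cebpb, a C/EBP factor gene, had 906 and 187 CPM in chondrocyte-like cells and 1243 CPM in cluster 7. Of the 13 early response genes 12 were higher in chondrocyte-like cells, beside 26.2% of all genes, and 4 in NP-like cells, beside 15%. Their part in these counts was not tested.

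The reporter construct gave a further division of NP-like cells. At 8W 1288 cells had at least 10 UMIs of the construct's WPRE4 sequence and 1014 had fewer, at median depths of 15444 and 15488 UMIs. Ccl7 had 1295 CPM in the cells with at least 10 and 1044 CPM in those with fewer, a log2 ratio of 0.31 (0.28 to 0.34). Csf2 had 13.2 and 26.8 CPM, a ratio of -1.02 (-1.23 to -0.82), and Il11 13.2 and 25.5 CPM, a ratio of -0.95 (-1.15 to -0.74). Ccl5 had 2.14 and 5.52 CPM, a ratio of -1.37 (-1.87 to -0.88), on 56 and 98 UMIs. These 3 ratios rest on few cells. A Csf2 UMI was found in 5.05% and 4.93% of the cells, and 10 and 7 cells held at least 50% of its UMIs. For Il11 6 and 6 cells held as much, and for Ccl5 2 and 3. The intervals do not cover this spread between cells. Ccl2 at -0.01 and Cxcl1 at -0.02 had intervals that include 0. At P10, with 203 and 101 cells, Il11 had the other sign, 1.84 (1.01 to 2.79), on 118 and 13 UMIs. Of the 118, 44 lay in 1 cell, and 3 cells held at least 50%. The log2 ratios of Ccl2, Ccl7 and Cxcl1 at P10 were 0.14, 0.03 and -0.26.

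Across 16 class-by-age units with at least 50 cells, which leave out the unnamed clusters, the pattern of Il11 on the log2(CPM + 1) scale was most like those of Cth, Ppp1r1b and Matn3, with Pearson correlations of 0.94, 0.93 and 0.93. For Ccl2 the 3 nearest genes were Fyco1 (0.94), Parp12 (0.92) and Sppl3 (0.91), for Ccl7 Il13ra1 (0.92), Trpm4 (0.86) and Slc38a1 (0.86), and for Cxcl1 Cavin2 (0.93), Gem (0.92) and Atp2b4 (0.91). Among the members, Ccl2 correlated with Cxcl1 at 0.80 and with Ccl7 at 0.57, and Il11 with Ccl2 at -0.67. The units share 2 libraries and differ in depth, and the nearest genes are the highest of 11144 candidates, so these values describe likeness only.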

How the data were processed

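Per the file headers, the deposited matrices were made with Cell Ranger 3.1.0. Per the submitters' processing notes the build was mm10 (GRCm38), and Seurat 3 is named without a role. Raw UMI counts per gene are what the deposited files give, with 7597 barcodes and 115097999 UMIs at 8W and 7690 barcodes and 143203550 UMIs at P10, and a second pair holds counts of exogenous sequences such as WPRE4. Names of cells and genes, other than numbers, are in the deposited text lists. Per the labels, discs were digested for 1 hour with 0.25% dispase and collagenase and passed through a 40 micrometre strainer, after muscles and vessels had been removed as far as possible. Whether the 4 samples of an age are separate animals is not stated.

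Cells were kept with at least 500 genes, 1000 UMIs and at most 15% mitochondrial UMIs. Scrublet removed 131 of 6481 cells at 8W (2.02%) and called 0 of 6999 at P10, so it did not work there. Both libraries were clustered together with scanpy 1.11.5 (2000 variable genes, 30 components, Leiden resolution 1). A class name needed at least 3 listed markers at 2-fold and in 25% of cells. Chondrocyte-like needed 8 markers in 50% of cells, which sufficed where no list passed the 2-fold rule. A cluster stayed unnamed after a tie of 2 lists, or when its leading genes held more markers of another class. It also did when it met the chondrocyte-like rule but passed another list with under 50% of its markers, or was shallow with no marker in the lead. The rule was tightened after the clusters were seen. Thinning kept each UMI of a cell with a fixed probability, set so that 2000 UMIs per cell remained on average. Cells with fewer than 2000 UMIs were left out of it, for example 97 NP-like cells at 8W. Shares have exact Clopper-Pearson intervals and ratios of counts exact conditional binomial intervals. Besides the 9 genes, the named genes are those of the 6 lists with the most UMIs (up to 4 a list), direct relatives of the members, the 3 most like each member by correlation and the 5 leading genes in member-rich cells (at least 3 UMIs, against 0). Members and lists were chosen with earlier results of these data known. Promoters came from RefSeq (GRCm38.p6) and were aligned with biopython 1.88. Filters, doublet limits, clustering, scaling, depth, top cells, minimum counts and the fold threshold were varied.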

Additional observations from a re-analysis of the deposited data

How the results depend on the processing

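No paired analysis was possible because the cells of an age cannot be assigned to its 4 samples, so neither leaving out a replicate nor a replicate block was run. The count of members past 2-fold between ages was 3 in NP-like, 3 in chondrocyte-like, 2 in hypertrophic chondrocyte-like and 3 in endothelial-like cells. In chondrocyte-like cells it was 8 with at most 10% mitochondrial UMIs, at least 1000 genes, no doublet removal, a doublet score limit of 0.25, Leiden resolution 0.5 or 2, each library clustered on its own, and cluster 7 added (chosen after the data were seen). It was 5 without cells carrying markers of another class and 1 after thinning. In the same 8 settings Saa2 in chondrocyte-like cells turned to 2.67, 3.41, 2.58, 2.70, 3.99, 2.58, 2.49 and 2.72. In hypertrophic chondrocyte-like cells the count was 4 with at least 1000 genes, 0 after thinning and 0 without the 5 highest cells. With at least 1000 genes that class held 1136 cells at 8W, against 140 in the main processing, so the 4 describes a different set of cells. After thinning the count was 1 in NP-like cells. In endothelial-like cells it was 1 with the score limit of 0.25, after thinning, without the 5 highest cells and at a 4-fold threshold. The cause of these moves was not tested. The share of all genes past 2-fold was computed only for the main processing, so counts under the other settings stand without it. Hypertrophic chondrocyte-like cells gave no value at resolution 0.5, in libraries clustered alone or without cells carrying other markers, and endothelial-like cells none in the last. Csf2 in NP-like cells was at least 1.42 after thinning, a bound against a floor of 3 counts, and 4.64 as reported. Saa2, Saa3, Ccl5 and Csf2 rest on few UMIs in most classes, and free RNA and undetected doublets at P10 limit every low share.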
